A study of Sus scrofa with 63 samples.

Results

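The genes described here are 10 imprinted genes, PEG3, PEG10, MEST, DLK1, MEG3, CDKN1C, PLAGL1, NNAT, SGCE and GRB10, measured in the jejunum of pig fetuses in late gestation. They were taken by name: every array probe whose gene name equals a member, in any letter case, entered, which gave 31 probes out of 60305 (10 of 45222 distinct gene names). The 63 fetuses, all male, came from Large White (LW) or Meishan (MS) sows that had received mixed semen of both breeds. A fetus was therefore purebred LW, purebred MS, or 1 of the reciprocal crosses, LWMS with an LW sire and an MS sow, or MSLW with an MS sire and an LW sow. Jejunum from the middle of the segment was taken at day 90 or day 110 of gestation, and RNA of 1 fetus was hybridised to each 1-colour array. Group sizes at day 90 were 9 LW, 6 MS, 9 LWMS and 8 MSLW fetuses, and at day 110 they were 9 LW, 7 MS, 9 LWMS and 6 MSLW fetuses. No treatment was given to any group. The labels give the breed of each sow but not which sow carried which fetus, so litter mates were treated as independent and the p-values may be too small.

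Imprinted genes are expressed mainly from the allele inherited from 1 parent, through DNA methylation set in the germ line and kept after fertilisation. In mouse and human, PEG3, PEG10, SGCE, MEST, NNAT, PLAGL1 and DLK1 are known as genes of the paternal allele, MEG3 and CDKN1C as genes of the maternal allele, and the expressed GRB10 allele depends on tissue and isoform. Many of them act on fetal growth. In reciprocal crosses between breeds that carry alleles of different strength, such a gene would follow the breed of the parent whose allele is expressed, so LWMS and MSLW would differ although both hold 1 genome of each breed. Arrays measure the sum of both alleles, and allele of origin was not measured.

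All values are scaled log2 signals, the log2 of the background-corrected spot signal minus the 75th percentile of that array, and they compare groups for 1 probe, never probes with each other. The precision is limited by the number of arrays. The share of probes well above background lay between 51.25% and 87.59% over the 63 arrays. Epithelial markers were present as labelled: all 8 of the epithelial genes tested, including EPCAM, CDH1 and FABP1, were well above background on all 63 arrays. Their mean level was uneven between fetuses at day 110. Its lowest value and median were 2.84 and 5.92 in MS and 3.81 and 5.80 in LW. They were 5.33 and 6.14 in LWMS and 5.50 and 6.09 in MSLW.

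Of the 31 member probes, 26 passed the filter on dim probes and were tested among 40515 probes, and 16 were well above background on all 63 arrays. The 5 probes that did not pass were 2 of DLK1 and 1 each of GRB10, MEST and PEG10, which were well above background on 5 to 20 arrays. Each gene is led below by its tested probe with the highest mean scaled signal. The leading CDKN1C probe was dim, being well above background on 39 of 63 arrays, and the other leading probes were well above background on all 63. PEG3, MEG3 and CDKN1C had 1 probe each.

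Some probe names needed care. The PEG3 probe shares 47 of its 60 bases, on the same strand, with a probe named PEG3AS for the PEG3 antisense transcript, and both gave nearly the same values (within-group r = 0.99 over 63 arrays, which share the bases and the arrays). Both probes therefore read the same strand, and whether the sense or the antisense transcript of this locus gave the signal cannot be told here. Probe A_72_P223757 is named SGCE, but RefSeq gives its transcript accession to PEG10, the neighbouring gene. It followed the leading PEG10 probe (within-group r = 0.93) more closely than the leading SGCE probe (r = 0.42), and is given by its probe name below. A pair of PEG10 probes lies on opposite strands, as their sequences show, with capitals marking the 24 bases of each that are the reverse complement of the other.

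PEG10 A_72_P564724: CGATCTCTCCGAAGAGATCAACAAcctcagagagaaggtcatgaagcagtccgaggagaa
PEG10 O7562: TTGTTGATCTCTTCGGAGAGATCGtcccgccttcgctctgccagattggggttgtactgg

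The first of them did not pass the filter, and the second did not follow the leading PEG10 probe (within-group r = -0.05), so O7562 was kept apart from the other PEG10 probes. Similarly O12866, named Nnat, did not follow the leading NNAT probe (r = 0.05), whereas the other NNAT probe did (r = 0.83). The second tested DLK1 probe, O6936, was well above background on 61 of 63 arrays. It followed the leading DLK1 probe only in part (r = 0.40), so correlations given below for DLK1 hold for its leading probe.

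The reciprocal crosses LWMS and MSLW were compared first, since they ask whether the parent that passed on each breed's alleles matters. None of the 26 member probes differed between LWMS and MSLW at an adjusted p below 0.05 (limma, Benjamini-Hochberg over all 40515 probes) at day 90, where 0.274% of all tested probes did. The same count was 0 of 26 at day 110, where 0.664% of all tested probes were called, and 0 of 26 over both days, where 1.62% were called. The difference between crosses did not change with age for any member either (0 of 26, against 0.00494% of all tested probes). At an unadjusted p below 0.05 there were 0 member probes at day 90, 2 at day 110, 1 over both days and 0 for the change with age. The counts called were also 0 in each of the 75 settings and left-out fetuses tried for these comparisons. Over both days, the median difference of the 26 member probes was -0.08, beside 0.00 for all tested probes, and with median centring these were 0.07 and 0.15, so the sign of the member median rests on the scaling.

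**Figure D1:**
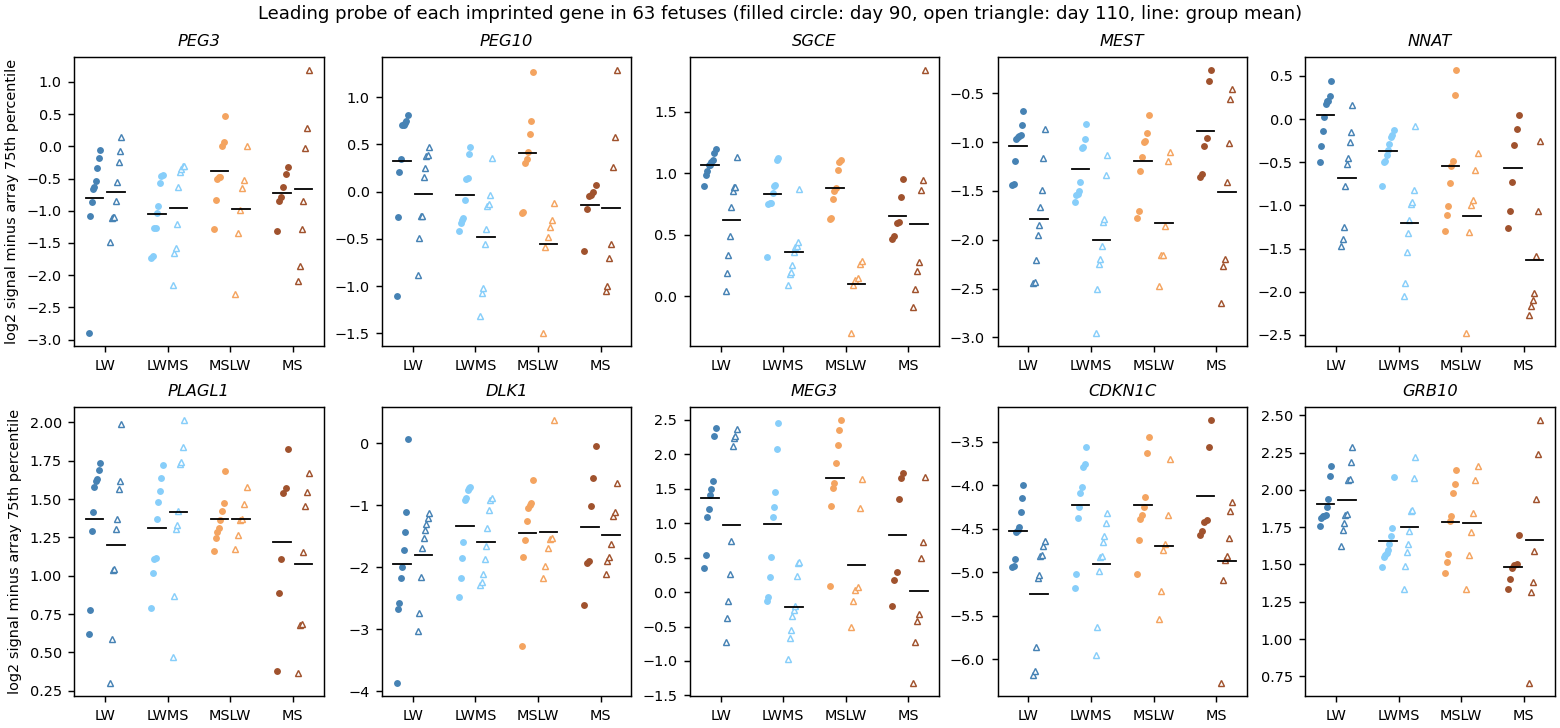
Scaled log2 signal (y axis) of the leading probe of each of the 10 imprinted genes in 63 fetuses, by genotype (x axis), with filled circles for day 90, open triangles for day 110 and a line at each group mean. LWMS and MSLW overlap in every panel at both days, and MEST, NNAT, MEG3 and CDKN1C are lower on average at day 110.

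MEG3, a long non-coding RNA of the DLK1 domain, showed the largest cross difference among the leading probes. At day 90 its lowest, median and highest values were -0.13, 1.09 and 2.45 in the 9 LWMS fetuses and 0.09, 1.73 and 2.50 in the 8 MSLW fetuses. At day 110 they were -0.97, -0.26 and 0.44 in the 9 LWMS fetuses and -0.51, 0.05 and 1.64 in the 6 MSLW fetuses. The crosses overlapped at both days, with the LWMS median below the MSLW median each time. Over both days LWMS was lower by a log2 difference of -0.64 ± 0.31 (SE; 95% interval -1.26 to -0.02), which did not pass (limma adjusted p = 0.28). Within the 8 slides that held the arrays, 10 pairs of the crosses at the same day could be formed, and MEG3 was lower in LWMS in 8 of them, with differences from -2.61 to 0.94.

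DLK1, a Notch-like membrane protein and the paternally expressed neighbour of MEG3, differed between the crosses by -0.04 ± 0.28 over both days, with an interval from -0.60 to 0.52. Its values overlapped widely, from -2.48 to -0.70 in LWMS and from -3.27 to -0.60 in MSLW at day 90. PEG3, a zinc finger protein, had a wide difference of -0.67 ± 0.34 at day 90 (interval -1.36 to 0.02, limma adjusted p = 0.48) and of 0.01 ± 0.37 at day 110. PEG10, derived from a retrotransposon, differed by -0.44 ± 0.26 at day 90 and 0.08 ± 0.28 at day 110. For both genes the lower LWMS level at day 90 was within the overlap of the groups and was not seen at day 110.

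For the remaining leading probes the difference is given over both days. The growth factor receptor adaptor GRB10 differed by -0.08 over both days (interval -0.29 to 0.13), and SGCE, a component of the dystrophin complex, by 0.10 (interval -0.13 to 0.33). PLAGL1, a zinc finger regulator of cell growth, differed by -0.01, with an interval from -0.31 to 0.29. Differences within these intervals are not excluded for these 3 genes with this number of fetuses. MEST, a protein of the hydrolase fold family, differed by -0.13 (interval -0.50 to 0.23), NNAT, a small membrane protein of neural and endocrine cells, by 0.04 (interval -0.35 to 0.44), and CDKN1C, an inhibitor of cyclin-dependent kinases, by -0.10 (interval -0.50 to 0.29). Among the other member probes, O10377 of SGCE reached an unadjusted p = 0.0493 at day 110 with a difference of 0.33, and O12866 reached 0.0446 with -0.90. Their limma adjusted p-values were 0.43 and 0.42.

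The difference between the crosses is the sum of a sire difference, LW sire minus MS sire, and a sow difference, MS sow minus LW sow, each estimated from all 8 groups with purebred fetuses included. No member probe was called for the sire (0 of 26, 6 at an unadjusted p below 0.05), while 6.95% of all tested probes were called. For the sow, 2 of 26 were called, both lower in fetuses of MS sows, where 16.0% of all tested probes were called and 8.71% were called lower. Of all sow calls 54.5% were lower, and 25.8% with median centring, while of all sire calls 44.8% were lower, and 31.6% with median centring. These shares depended on the setting: with array weights, which count noisier arrays less, 6 of 26 members were called for the sire and 11 of 26 for the sow, where 15.5% and 32.7% of all tested probes were called, and with the slide as a block 3 and 4 of 26, where 8.51% and 19.2% were. Which part of a sow difference comes from the maternal allele and which from the sow as the fetal environment cannot be told apart in this design, since both belong to the sow. A breed difference carried alike by both alleles would also enter the sire and sow differences, with opposite signs, and cancel in the crosses. A sire or sow call alone is therefore not evidence of an effect of that parent only. Sow breed did not vary within a litter and litters were not in the fit, so the sow p-values in particular may be too small. The paper, which fitted the sow as a random effect, reported a moderate effect of the maternal genotype and none of the paternal genotype.

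MEG3 was called for the sow. At day 90 its lowest, median and highest values were 0.09, 1.51 and 2.50 in the 17 fetuses of LW sows and -0.20, 1.09 and 2.45 in the 15 fetuses of MS sows. At day 110 they were -0.73, 0.26 and 2.36 in the 15 fetuses of LW sows and -1.32, -0.29 and 1.68 in the 16 fetuses of MS sows. The values overlapped widely, with the median lower under MS sows at both days. The sow difference was -0.69 ± 0.22 (SE; 1.616-fold lower, limma adjusted p = 0.0239), and the sire difference was 0.05 ± 0.22 (adjusted p = 0.94). The mean was lower under MS sows within 7 of 8 slides, from -1.84 to 0.53. The call was lost with median centring (-0.59, adjusted p = 0.0557), and it held without each of the 63 fetuses in turn, with adjusted p up to 0.0474. Leaving out single fetuses does not account for litters, since litter mates share their sow. MEG3 moved with the tissue make-up of the samples (below). In the sow comparison 1 of 8 epithelial genes was called higher under MS sows, KRT8 by 0.21, with a list median of 0.24. Of 9 mesenchymal genes 0 were called, with a list median of -0.04. Of 5 endothelial genes 1 was called lower, of 8 neuronal and glial genes 1 higher and 1 lower, and of 6 blood and immune genes 1 higher. Of all 40515 tested probes 2940 were called higher and 3527 lower. The part of these markers in the result was not tested.

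GRB10 was also called for the sow, by its leading probe A_72_P441159 (-0.21 ± 0.08, limma adjusted p = 0.0454). At day 90 its median was 1.83 in fetuses of LW sows and 1.56 in fetuses of MS sows, and at day 110 it was 1.84 and 1.68, with overlap at both days. The call was lost with median centring (-0.11, adjusted p = 0.425), with normexp, another way to correct the background (adjusted p = 0.0554), and with no filter on dim probes (adjusted p = 0.0658). Leaving out any of 35 fetuses also ended it, with adjusted p up to 0.082. The other 5 tested GRB10 probes were not called and lay between -0.15 and 0.16. Among them, A_72_P432379 aligns with the leading probe over 54 bases with 1 difference, G5A, counted from the 5′ end of A_72_P432379 with its own base first, and its sow difference was -0.03 ± 0.08. The difference between these probes for almost the same stretch was not tested.

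NNAT came closest to a call for both parents. Its leading probe was higher with an LW sire by 0.42 ± 0.14 (limma adjusted p = 0.0591) and lower with an MS sow by -0.37 ± 0.14 (adjusted p = 0.06). These values nearly cancel in the crosses, which differed by 0.04. Whether they reflect a breed difference carried by both alleles was not tested. The second NNAT probe, A_72_P136716, had a similar sow difference of -0.32 ± 0.13 but a sire difference of 0.08 ± 0.13, neither called. With the slide as a block the leading probe passed for the sire (adjusted p = 0.0162) and for the sow (adjusted p = 0.042), and over the 10 alternatives it passed in 6 for the sire and in 3 for the sow.

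**Figure D2:**
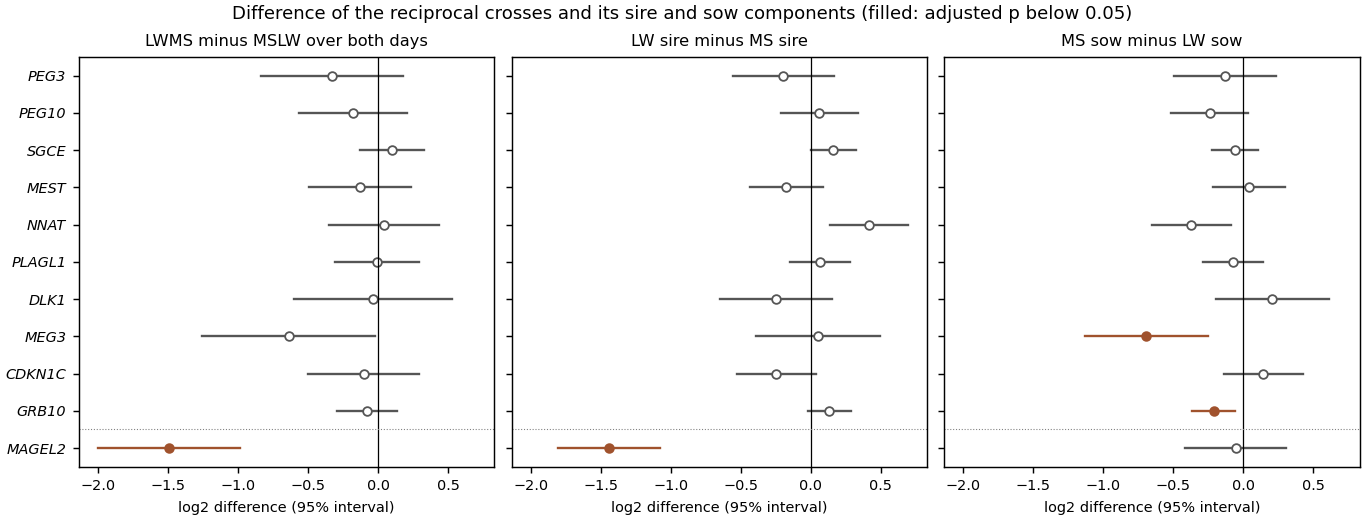
Log2 difference with its 95% interval (x axis) of LWMS minus MSLW, LW sire minus MS sire and MS sow minus LW sow for the leading probe of the 10 genes and, below the dotted line, of MAGEL2, with filled points where the adjusted p is below 0.05. Among the 10 genes only MEG3 and GRB10 are filled, both in the sow panel, while MAGEL2 is filled in the cross and sire panels at -1.50 and -1.44.

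Other imprinted genes were looked up by name in lists of paternally and maternally expressed genes. Of 15 paternally expressed genes 7 were tested with 21 probes, of 18 maternally expressed genes 9 with 32 probes, and of 14 genes that set or keep methylation imprints 7 with 19 probes. A single probe of these 72 differed between the crosses over both days, where 1.62% of all tested probes did. It belongs to MAGEL2, a paternally expressed gene of the Prader-Willi region whose protein takes part in ubiquitin-dependent sorting of membrane proteins. Its sequence of 60 bases is shown because the result rests on this probe alone.

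MAGEL2 A_72_P493343: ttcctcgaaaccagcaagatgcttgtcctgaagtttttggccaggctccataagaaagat

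At day 90 the lowest, median and highest MAGEL2 values were -5.19, -3.66 and -2.62 in LWMS and -3.45, -1.61 and -1.13 in MSLW. The purebred LW fetuses lay at -4.65, -3.35 and -2.81, and the purebred MS fetuses at -3.02, -2.13 and -1.64. Each cross was thus placed with the purebred of its sire's breed. At day 110 the values were -5.19, -4.14 and -3.59 in LWMS, -3.81, -2.99 and -2.16 in MSLW, -5.30, -4.31 and -3.27 in LW, and -4.06, -2.86 and -1.27 in MS. Again LWMS was low beside LW and MSLW high beside MS, with some overlap between single fetuses. Over both days LWMS was lower than MSLW by -1.50 ± 0.25 (2.819-fold, limma adjusted p = 0.000109), with -1.64 ± 0.34 at day 90 (adjusted p = 0.00819) and -1.35 ± 0.37 at day 110, which did not pass (adjusted p = 0.0674). The sire difference was -1.44 ± 0.18 (adjusted p = 2.57e-08) and the sow difference -0.05 ± 0.18 (interval -0.42 to 0.31, adjusted p = 0.87). The size depended on the background correction: with normexp the difference was -0.83 over both days, -0.92 at day 90 and -0.79 for the sire, each still called. The day 90 call was lost with quantile normalization (adjusted p = 0.11) and when only the groups compared were fitted (adjusted p = 0.0512). Within slides MSLW was above LWMS in 8 of 10 pairs, from -3.58 to 0.78. MAGEL2 was well above background in 31 of 36 fetuses with an LW sire and in 27 of 27 with an MS sire. The probe sequence was not compared with the alleles of the breeds, and no second MAGEL2 probe was tested.

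**Figure D3:**
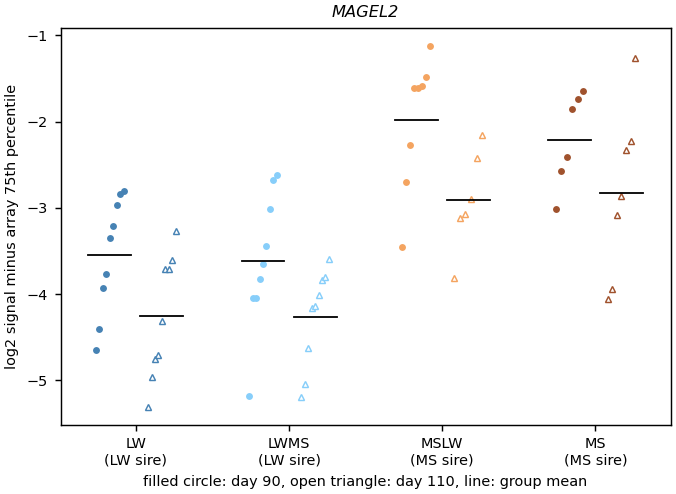
Scaled log2 signal of the MAGEL2 probe (y axis) in 63 fetuses by genotype and sire breed (x axis), with filled circles for day 90, open triangles for day 110 and a line at each group mean. LW and LWMS, both with LW sires, sit low, with day 90 means of -3.55 and -3.61, and MSLW and MS, both with MS sires, sit high, with day 90 means of -1.98 and -2.21.

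For the sire 3 of the 72 probes were called, MAGEL2 among them, and for the sow 3, where 6.95% and 16.0% of all tested probes were. With normexp 2 were called for the sire, where 5.63% of all tested probes were. For the sow 1 was called with median centring, 0 with no filter on dim probes and 14 with array weights. The shares of all tested probes called in these 3 settings were 16.2%, 9.96% and 32.7%. For the sire, NAP1L4, a histone chaperone gene, was higher with LW by 0.27 ± 0.06 (limma adjusted p = 0.00056), and ASB4, a subunit of a ubiquitin ligase, was called higher with LW (adjusted p = 0.0066). Both NAP1L4 and ASB4 are on the list of maternally expressed genes, although these calls were for the sire. ASB4 was not well above background in 31 of the 32 day 90 fetuses, so no size is given for its sire difference. At day 110 its median was -2.39 in LW, -1.83 in LWMS, -2.98 in MSLW and -6.57 in MS, where it was well above background in 3 of 7 fetuses. For the sow, NAP1L4 (-0.15 ± 0.06, adjusted p = 0.0488), probe A_72_P348513 of GNAS (-0.22 ± 0.08, adjusted p = 0.0405) and probe A_72_P489307 of TET1, which oxidises methylcytosine (0.32 ± 0.11, adjusted p = 0.0456), were called. IGF2, the fetal growth factor, was not called between the crosses in its leading probe (-0.05 ± 0.23 over both days). H19, the maternally expressed RNA beside IGF2, differed by -1.66 ± 0.68 at day 110 and was not called (adjusted p = 0.29), with values from -6.13 to -0.73 in LWMS and from -2.52 to -0.26 in MSLW.

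Purebred MS and LW fetuses were compared with a stricter rule, an adjusted p of at most 0.01 and a log2 difference of at least 0.5. No member probe was called at day 90 (0 of 26, 8 at an unadjusted p below 0.05) or at day 110 (0 of 26, 2 at an unadjusted p below 0.05), while 3.58% and 5.00% of all tested probes were called. NNAT was nearest at day 110, with lowest, median and highest values of -2.26, -2.01 and -0.25 in 7 MS fetuses and -1.46, -0.52 and 0.17 in 9 LW fetuses. Most MS fetuses lay below the LW range, and the difference of -0.96 ± 0.28 had a limma adjusted p of 0.0157. The leading GRB10 probe was lower in MS at day 90, from 1.33 to 1.70 against 1.76 to 2.16 in LW, without overlap between the groups. This difference of -0.42 ± 0.16 did not pass either the fold or the p criterion (limma adjusted p = 0.0998). It was not seen in A_72_P432379, the probe for almost the same stretch, where the groups overlapped. That probe ranged from 1.24 to 1.56 in MS (median 1.48) and from 1.32 to 1.81 in LW (median 1.45).

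From day 90 to day 110, by the same rule and over the 4 genotypes, 10 of 26 member probes fell and none rose, where 13.8% of all tested probes were called and 7.71% were called lower. The median difference of the 26 probes was -0.38, beside -0.02 for all tested probes. The count and the size depended on how the signal was processed: 4 of 26 fell with normexp, where 3.65% of all tested probes were called lower, and 4 of 25 in the authors' values, where 4.8% were, with member medians of -0.13 and -0.18. The genes that fell in their leading probe were MEST, NNAT, MEG3 and CDKN1C, and the first 3 were also called with normexp and in the authors' values. The CDKN1C probe was not called with normexp and is absent from the authors' values, so it was not tested there. It also passed the filter on dim probes only through day 90 groups, which favours a fall. PEG10 and SGCE fell in probes other than the leading one, while the leading probes of PEG10 (-0.45 ± 0.14, limma adjusted p = 0.00702) and SGCE (-0.44 ± 0.08, adjusted p = 1.26e-05) passed the p criterion but not the fold criterion.

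MEST fell in all 3 tested probes, by -0.68 ± 0.13 in the leading probe (limma adjusted p = 2.17e-05), by -0.72 in O12643 and by -0.96 in A_72_P122964. O12643 and A_72_P122964 were dim, well above background on 50 and 43 of 63 arrays, so their sizes are uncertain. The median of the leading MEST probe in LW fetuses was -0.94 at day 90 and -1.85 at day 110, and in LWMS fetuses it was -1.40 and -2.06. NNAT fell in its leading probe by -0.80 ± 0.14 (adjusted p = 5.22e-06) and in A_72_P136716 by -0.83 ± 0.13. Its median in LW went from 0.17 to -0.52 and in MS from -0.52 to -2.01, so the day 110 fetuses of each genotype were lower with overlap. Among the purebreds, MS fetuses at day 110 reached the lowest NNAT group mean, -1.64.

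The maternally expressed members MEG3 and CDKN1C fell by -0.92 ± 0.22 (limma adjusted p = 0.000597) and -0.66 ± 0.14 (adjusted p = 0.000137). MEG3 group means went from between 0.83 and 1.66 at day 90 to between -0.21 and 0.97 at day 110. CDKN1C was well above background in 24 of 32 fetuses at day 90 and 15 of 31 at day 110, and its fall of -0.66 became -0.11 with normexp background correction (adjusted p = 0.33). For this dim probe the size of the change rests on the background correction. The probe passed the filter only through MS (6 of 6 fetuses) and LWMS (7 of 9 fetuses) at day 90. Its call is therefore no independent evidence of a fall with age.

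In SGCE, A_72_P443190 fell by -0.64 ± 0.08 (limma adjusted p = 5.2e-09), and A_72_P223757, which carries the PEG10 accession, by -0.55 ± 0.14. In PEG10, A_72_P534124 fell by -0.55 ± 0.13 (adjusted p = 0.000521). PEG3, DLK1, PLAGL1 and GRB10 had no probe called, and their leading probes changed by -0.09 ± 0.18, -0.06 ± 0.20, -0.05 ± 0.11 and 0.08 ± 0.08. All 6 tested GRB10 probes lay between -0.07 and 0.23.

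**Figure D4:**
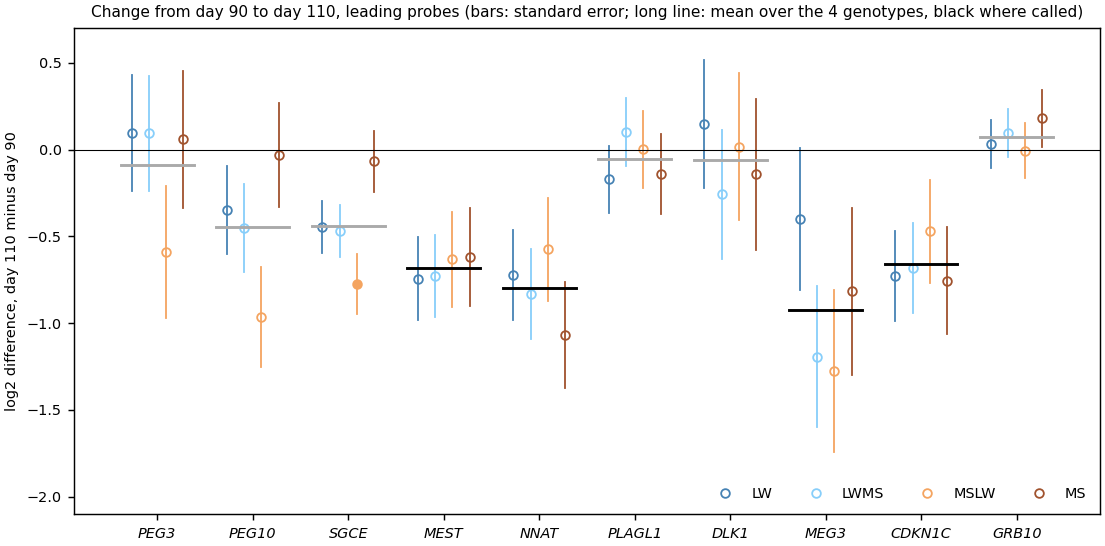
Log2 difference between day 110 and day 90 (y axis) of the leading probe of each gene (x axis) in the 4 genotypes, with bars for the standard error, filled points where called, and a long line for the mean over genotypes, black where called. MEST, NNAT, MEG3 and CDKN1C lie below 0 in all 4 genotypes, and GRB10, PLAGL1 and DLK1 lie near 0.

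Within single genotypes fewer probes were called for age. In LW, 1 of 26 fell (A_72_P122964 of MEST, -1.27 ± 0.28), where 4.76% of all tested probes were called. That probe was well above background in 8 of 9 LW fetuses at day 90 and in 3 of 9 at day 110. In MS none was called (0 of 26, 5 at an unadjusted p below 0.05), where 3.12% were called, and NNAT was nearest with -1.07 ± 0.31. In LWMS 2 of 26 fell (A_72_P136716 of NNAT, -1.03 ± 0.24, and A_72_P443190 of SGCE, -0.80 ± 0.15), where 9.86% were called. In MSLW 4 of 26 fell, 3 of SGCE from -0.94 to -0.76 and A_72_P534124 of PEG10 by -1.08 ± 0.27, where 5.43% were called. Whether the age changes differed between genotypes was tested only between the crosses, where no member was called.

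Probes of the other imprinted lists were also called for age. Of 21 paternally expressed probes 10 fell and none rose, where 7.71% of all tested probes were called lower, and 8 of the 10 read 1 gene, IGF2 (-0.92 ± 0.17 in its leading probe, limma adjusted p = 9.01e-06). The others were SNRPN (-0.53 ± 0.13) and MAGEL2 (-0.73 ± 0.18), and with normexp or in the authors' values the count was 8 of 21, without MAGEL2. Of 32 maternally expressed probes 5 fell, 4 of GNAS and 1 of H19 (-2.00 ± 0.33), which was well above background in 26 of 31 fetuses at day 110. SLC22A18 and ASB4 rose, SLC22A18 by 1.05 ± 0.12. For ASB4 the day 110 mean was at least 5.84-fold higher in LW, 8.97-fold in LWMS and 3.73-fold in MSLW. These bounds set each day 90 array at the lowest signal of any probe well above background, or at the probe's own value where that was higher. No bound is given for MS, where ASB4 was well above background in 3 of 7 fetuses at day 110. ASB4 passed the filter only through LW (9 of 9), LWMS (9 of 9) and MSLW (6 of 6) at day 110. Its call is therefore no independent evidence of a rise. None of the 19 probes of imprint maintenance genes was called for age, but their median difference was -0.35, beside -0.02 for all tested probes. With array weights 4 of the 19 were called lower, where 9.28% of all tested probes were.

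Cell type markers moved over the same interval. Of 9 mesenchymal genes 3 were lower at day 110, COL1A1 by -0.81, COL1A2 by -0.74 and THY1 by -0.68, and of 8 neuronal and glial genes 3 were lower, GAP43 by -0.75, UCHL1 by -0.64 and ELAVL4 by -0.63. Of 8 epithelial genes 2 were higher, FABP1 by 2.55 and LCT by 1.37, and ANPEP was lower by -0.59. Of 7 smooth muscle genes 1 was lower, of 6 blood and immune genes 1 was higher and 2 were lower, and of 5 endothelial genes 0 were called. Of all tested probes 13.8% were called for age and 7.71% were called lower. The mean level of the mesenchymal list ranged from 2.08 to 3.21 in LW at day 90 and from 2.14 to 3.11 at day 110, and in MSLW from 2.26 to 3.23 and from 2.01 to 2.61. In whole tissue, fewer cells of a type and less RNA per cell cannot be told apart, and the part of these markers in the fall of the imprinted genes was not tested.

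Fetuses of the same group differed from each other in a shared way. After subtraction of the group means, 13 of the 45 pairs of leading probes had a correlation above 0.5 over the 63 arrays, and 7 had one below -0.5. PEG3 and PEG10 were the closest pair (r = 0.90), and MEG3 went with both (r = 0.76 with PEG3 and 0.73 with PEG10). SGCE went most with GRB10 (r = 0.71) and less with its neighbour PEG10 (r = 0.55). MEG3 and DLK1, which share a domain, ran in opposite directions in their leading probes (r = -0.43), as did DLK1 and PEG3 (r = -0.65). PLAGL1 ran against MEST (r = -0.63), SGCE (r = -0.56) and GRB10 (r = -0.55). These values are descriptions over points that share arrays, scaling and litters, and many other genes had such values too: the share of all tested probes with a correlation beyond 0.5 in either direction ran from 6.89% for MEST and 10.3% for PLAGL1 to 32.65% for MEG3 and 33.4% for PEG3.

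The marker lists ran along the same axis. PEG3, MEG3, PEG10 and GRB10 went with the mean of the mesenchymal list (r = 0.86, 0.79, 0.77 and 0.75), SGCE with the smooth muscle list (r = 0.71), and NNAT and MEST with the list of neurons and glia (r = 0.69 and 0.63). SGCE, MEG3 and PEG3 ran against the epithelial list (r = -0.75, -0.65 and -0.58), and DLK1 against the endothelial list (r = -0.68). The share of probes well above background on an array went little with any member (r from -0.24 for DLK1 to 0.27 for MEG3). The within-group spread differed among genes: the standard deviation was 0.88 for MEG3, higher than in 92% of tested probes, 0.81 for DLK1 and 0.73 for PEG3, against 0.32 for SGCE and 0.30 for GRB10.

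**Figure D5:**
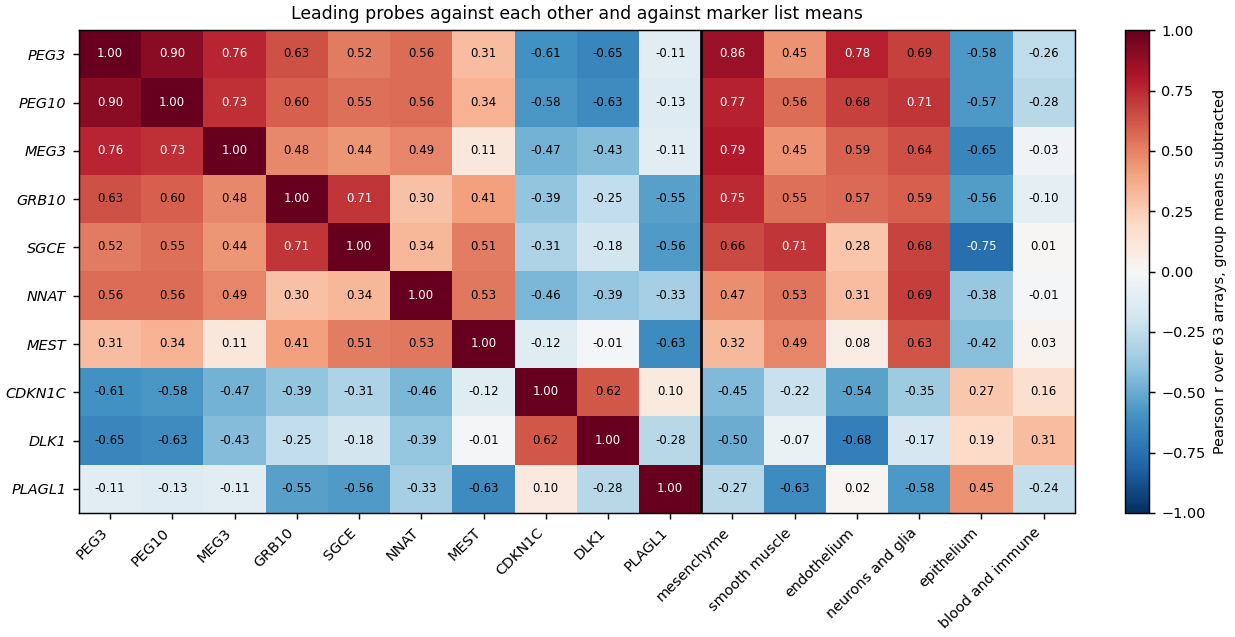
Pearson correlation over 63 arrays after subtraction of group means, between the leading probes of the 10 genes (rows and left columns) and between these and the means of 6 marker lists (right columns), with red for positive and blue for negative values. PEG3, PEG10 and MEG3 form a block of values from 0.73 to 0.90 that also runs with the mesenchymal list, while DLK1, CDKN1C and PLAGL1 run mostly the other way.

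The genes closest to each member by the same measure, with the correlation of the raw values in second place, were the following. PEG3 was most like VANGL1 (r = 0.94, raw 0.91), DCHS1 and RET, a receptor of enteric neural cells (r = 0.93, raw 0.90), and PEG10 was most like RET (r = 0.92, raw 0.88), ZYX and FLNC. DLK1 was most like CTSB (r = 0.95, raw 0.94), LOX and PLEKHG6, and MEG3 like CATSPERG (r = 0.92, raw 0.89), TCF7L2 and AHDC1. SGCE was most like SGCB, another sarcoglycan gene (r = 0.87, raw 0.89), FHL1C and PBX3. GRB10 was most like FKBP10 (r = 0.90, raw 0.61), SLC38A5 and ITPRIP, and PLAGL1 like COL7A1 (r = 0.91, raw 0.89), JAG1 and MORC2. For NNAT, MEST and CDKN1C the closest genes were less near, DLGAP4 (r = 0.75, raw 0.83), PAQR7 (r = 0.76, raw 0.74) and OPRL1 (r = 0.70, raw 0.30).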

How the data were processed

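Total RNA of jejunum from 63 fetuses was hybridised to 1-colour Agilent arrays of 61625 spots, 1 fetus per array, on 8 slides. Per the file headers and processing notes, the deposited intensity values come from Agilent Feature Extraction 10.10.1.1, background-subtracted and not yet scaled between arrays. The authors' own table of 39446 probes holds log2 values after normalization, and served as an alternative. Here control spots were left out, outlier spots were masked, spots of a probe were averaged, and log2 signals were centred on each array's 75th percentile. A probe was kept if, in some group, 75% or more of the arrays had it well above background (40515 of 60305). One limma 3.58.1 model of 8 group means gave all comparisons, with Benjamini-Hochberg adjustment over all 40515 probes. Parental comparisons used an adjusted p below 0.05. Breed and age comparisons required 0.01 or less and a log2 change of 0.5 or more. The script was tested on simulated data. Groups came from the labels. The files name no genome build, so no coordinates were used. Gene lists and members were chosen with earlier results of these data known. A gene was led by its brightest tested probe. For each member the 3 most correlated genes of the RefSeq or Ensembl tables were named, and from the lists the probes called in the cross, sire or sow comparisons, besides IGF2 and H19, which were chosen after their values were seen.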

Additional observations from a re-analysis of the deposited data

Results flagged for a closer look

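Each of the 8 groups was checked for a fetus far from the others in the 10 leading probes and in MAGEL2, 88 checks in all, of which chance alone would mark about 4.4. In 10 of them a single fetus of 9 different fetuses stood apart. PEG3 was -2.90 in LW fetus 484 at day 90, where the other 8 lay between -1.08 and -0.06. PEG10 was -0.63 in MS fetus 532 at day 90, with the others from -0.19 to 0.07, and -1.50 in MSLW fetus 476 at day 110, with the others from -0.58 to -0.12. DLK1 was 0.38 in that MSLW fetus 476, with the others from -2.18 to -1.53, and -3.27 in MSLW fetus 899 at day 90, with the others from -1.84 to -0.60. CDKN1C was -6.27 in MS fetus 623 at day 110, with the others from -5.09 to -4.20. SGCE was 0.32 in LWMS fetus 954 at day 90 (others 0.75 to 1.12), 0.87 in LWMS fetus 609 at day 110 (others 0.09 to 0.44) and -0.30 in MSLW fetus 851 at day 110 (others 0.09 to 0.29). GRB10 was 2.08 in LWMS fetus 508 at day 90 (others 1.48 to 1.74). The share of probes well above background on these arrays ranged from 60.73% to 80.36%.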

How the results depend on the processing

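Counts of member probes called between the crosses were 0 under every alternative run and without each fetus. No difference reversed its sign with a call. For the sire, the count of 0 became 1 with quantile normalization, 1 with median centring, 2 with the authors' values, 3 with the slide as a block, 6 with array weights, 2 with the share of probes well above background as a covariate (chosen after seeing the data), 1 without LW fetuses 484 and 469, and 0 to 2 without single fetuses (2 without MS fetus 623, 627 or 632, or LW fetus 670 or 854). For the sow, 2 became 0 with median centring, 1 with normexp, 4 with the slide block, 11 with array weights, 4 with the covariate, and 1 to 4 without single fetuses (4 without MS fetus 623 or 627, LW fetus 852 or 670, or LWMS fetus 609). Between purebreds, 0 at day 90 became 1 with array weights. At day 110, 0 became 1 with the slide block, 5 with array weights, 1 with the covariate, and 0 to 1 without single fetuses (1 without MS fetus 627, LW fetus 852 or 854, or MSLW fetus 688). For age over the 4 genotypes, 10 became 4 with normexp, 4 with the authors' values, and 5 when only probes well above background on all arrays were tested, a set with fewer members. Age calls in LW, 1, became 0 with normexp, 0 with the all-array filter and 3 with array weights. Age calls in MS, 0, became 5 with array weights and 0 to 1 without single fetuses, being 1 without MS fetus 627. Age calls in LWMS, 2, became 1 with the all-array filter, 6 with array weights and 2 to 5 without single fetuses, with 4 without LWMS fetus 954 and 5 without LWMS fetus 609. Age calls in MSLW, 4, became 1 with median centring, 7 with the slide block and 7 with array weights. The MAGEL2 call over both days held in the alternatives that tested it, with adjusted p up to 0.0197 and differences from -1.61 to -0.83. The cause of these moves was not tested. No paired analysis was possible because the replicate numbers are fetus numbers and are not shared between groups; the slide, which holds several groups, was used as a block instead.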
